A study of Mus musculus with 4 samples.

Results

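The proteins that let the spliceosome find and cut an intron were followed here at the RNA level in mouse spermatocytes with and without TDRD6. The group holds 41 genes, chosen by symbol and matched to their Ensembl identifiers, among 37718 gene rows in the count files. It covers the proteins of the U1 and U2 snRNPs, the factors that read the branch point and the 3′ splice site, proteins of tri-snRNP entry, the Prp19 complex with related proteins, the DEAH helicases and the second-step factors. For each gene the count of the whole gene, of its exon segments and junctions and of its introns was taken in all 4 samples.

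The cells were hCD4+ testis cells at 20 days post partum (dpp), isolated with magnetic beads from Tdrd6+/- and Tdrd6-/- males, with 2 samples of each genotype. In both genotypes hCD4 is made from the endogenous Tdrd6 promoter, so the sort takes cells in which this promoter is active, mainly diplotene spermatocytes, and each sample pools at least 4 mice. Replicates are separate pools as far as the labels tell, and with 2 against 2 the p-values rest on the spread between few samples. Wild-type cells were not among the samples, so every comparison is with heterozygous cells.

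Splicing removes introns from pre-mRNA in 2 reactions that an assembly of small nuclear RNAs and proteins carries out. U1 snRNP pairs with the 5′ splice site, SF1 and the U2AF dimer read the branch point and the 3′ splice site, and U2 snRNP with its SF3A and SF3B proteins then takes the place of SF1 at the branch point. The tri-snRNP joins, the Prp19 complex stabilises the catalytic centre, and helicases of the DEAH family drive the rearrangements between steps and the release of the product. In diplotene spermatocytes this machinery processes the large and diverse meiotic transcriptome.

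The summed gene counts were 26454326 and 29253182 for the Tdrd6+/- samples, given in the order of their replicate numbers here and throughout, and 30486157 and 31388750 for the Tdrd6-/- samples. Introns took 30.95% and 27.11% of tallied fragments in Tdrd6+/- and 27.43% and 21.94% in Tdrd6-/-, so Tdrd6-/- replicate 2 stood lowest. Tdrd6 itself had 33220 and 39322 counts in Tdrd6+/- and 359 and 400 in Tdrd6-/-. The 6 markers of pachytene and diplotene spermatocytes were abundant in every sample, with a summed level of 3867 to 4075 CPM (counts normalised by TMM library size). Of these, Sycp1 passed the test of gene counts as higher in Tdrd6-/- (log2 fold change 0.60, adjusted p = 0.0467, edgeR) and Piwil1 as lower (-0.44, adjusted p = 0.0773). Markers of other cells were far lower: the 6 Sertoli markers summed to 58.0 and 50.4 CPM in Tdrd6+/- and 64.6 and 65.7 in Tdrd6-/-, and the 6 spermatogonial markers to 23.9 and 22.5 against 27.2 and 31.2. The 5 Leydig markers summed to 17.1 to 22.1 CPM and the 4 leukocyte markers to 3.44 to 5.98 CPM over the samples. The 5 round spermatid markers summed to 3.245 and 5.995 CPM against 9.80 and 8.28, nearly all of it from Acrv1, which passed as higher (log2 fold change 0.96, adjusted p = 0.0565, edgeR), with Prm1 at 0 in all samples but Tdrd6-/- replicate 2, which had 4 counts. The part of these cells in the results was not tested.

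Exon joins named in the results are printed first. They mark the intron of Dhx15 and the intron of Prpf39 whose share fell in Tdrd6-/-, and 4 joins along Sf1, the gene whose count fell, together with 1 join of Sf3a2. Each is 15 bases of the upstream exon in lower case followed by 15 bases of the downstream exon in capitals, 5′ to 3′, read from the GENCODE M21 transcripts of mm10, with the removed intron given by its position.
Dhx15 exons around intron 11 (chr5:52171584-52180981, minus strand): aaaaaccattcttaaGTATATGACTGACGG
Prpf39 exons around intron 1 (chr12:65036469-65042460, plus strand): agcatccatagtgagATCATTAACTGAAGA
Sf1 junction J047 (chr19:6365793-6368363, plus strand): aaagagcttacatagTGCAACTACAGATAG
Sf1 junction J050 (chr19:6368440-6371266, plus strand): taaccctgaggacagGTCCCCTTCCCCTGA
Sf1 junction J053 (chr19:6371708-6372024, plus strand): cctaattggacccagAGGGAACACCCTGAA
Sf1 junction J062 (chr19:6374609-6374718, plus strand): tgcatcaaggaaaagGTATGATGCCGCCGC
Sf3a2 junction J018 (chr10:80799103-80801195, plus strand): gattgaaagataacgGTTTCTTCCTGTCCC

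All 41 genes were expressed, and their levels spanned a 30.02-fold range per kb of annotated exon. The median gene stood at 13.7 CPM per kb, against 1.73 for all 18827 genes with at least 10 counts in total. The highest was Sf3b2, a subunit of the SF3B complex that holds the branch point, at 67.2 and 72.3 CPM per kb in Tdrd6+/- and 75.1 and 74.2 in Tdrd6-/-. Sf3b1, the scaffold of the same complex, followed at 65.0 and 63.6 against 62.9 and 65.0 CPM per kb, so the ranges of these neighbours in the order did not overlap. Both belonged to the top 4.14% of genes by this measure.

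Below this pair came Sf3a3 of the SF3A complex at 42.6 ± 4.30 CPM per kb (SD, n = 4 samples), then the helicase gene Dhx16 at 37.9 ± 2.24, Cdc5l of the Prp19 complex at 35.7 ± 1.73 and Bud31 at 35.2 ± 5.40. The ranges of Dhx16, Cdc5l and Bud31 overlapped, and that of Sf3a3 overlapped those of Dhx16 and Bud31. The lowest were Isy1 at 2.41 ± 0.195, Prpf39 at 2.89 ± 0.423 and Cwc22 at 2.95 ± 0.365 CPM per kb, and the ranges of all 3 overlapped. Cwc22 was counted together with an overlapping gene, so its level is that of the pair.

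**Figure D1:**
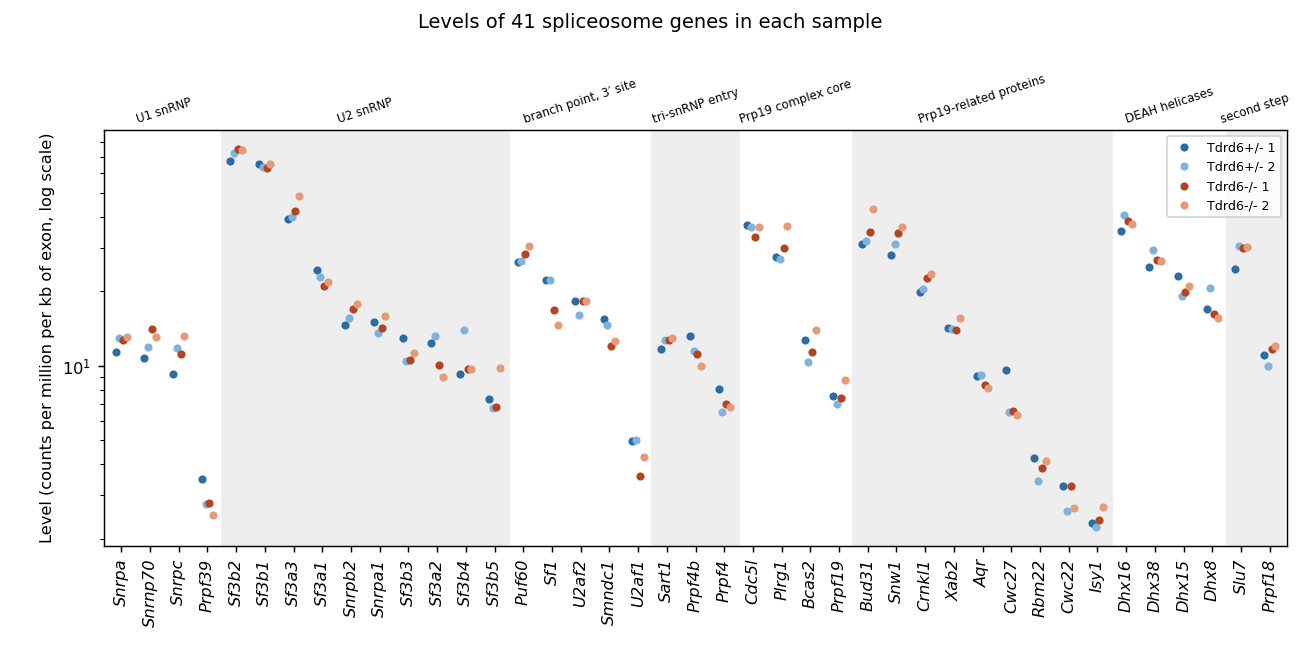
Levels of the 41 genes in CPM per kb of exon on a log axis, ordered by subcomplex and then by mean level; each point is 1 of the 4 samples. Levels run from 2.41 for Isy1 to 72.2 for Sf3b2 on average, and within most genes the 4 points lie close together beside the distances between genes.

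Subunits of one particle differed widely in level per kb. Within the U2 snRNP the 10 genes ranged from 7.67 CPM per kb for Sf3b5 to 72.2 for Sf3b2, a 9.41-fold range, and the 9 Prp19-related genes ranged 14.6-fold. The order depends on the length used, which is that of all annotated exons of a gene. By CPM alone the lowest U2 gene was Sf3b4 at 23.1, with Sf3b5 at 29.5, and the highest was Sf3b1 at 729. The 4 DEAH helicases were closer to each other, from 17.4 CPM per kb for Dhx8 to 37.9 for Dhx16. The U1 genes Snrpa, Snrnp70 and Snrpc lay between 11.4 and 12.5 CPM per kb with overlapping ranges, and Prpf39 lay below all of them.

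To ask whether loss of TDRD6 altered the supply of mRNA for these proteins, gene counts were compared between the genotypes. One of the 41 genes passed a false discovery rate of 0.1, which was Sf1, and it was lower in Tdrd6-/-. That is 2.44% of the members, beside 4.8% of all 16555 genes tested (3.78% lower and 1.02% higher). The median log2 fold change, Tdrd6-/- over Tdrd6+/-, was 0.07 over the members and 0.01 over all genes tested. Both Tdrd6-/- samples lay above both Tdrd6+/- samples for 12 of 41 members and below them for 8, while the same held for 20.1% and 23.4% of all genes tested.

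**Figure D2:**
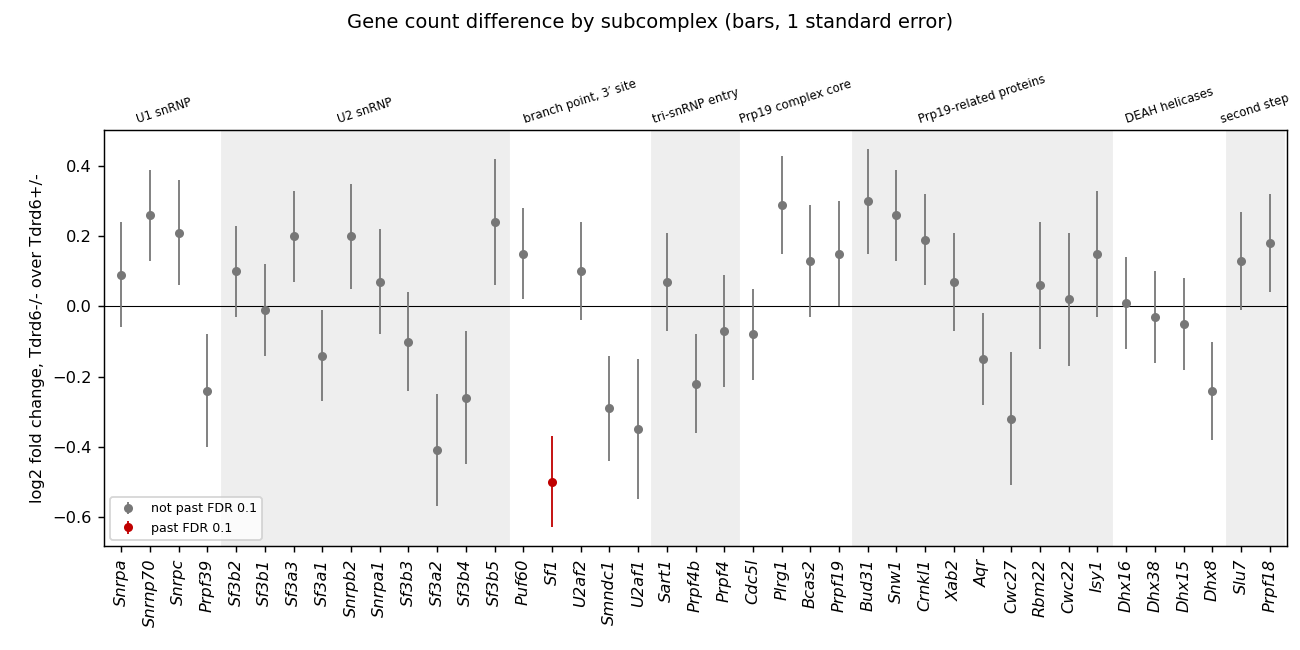
Log2 fold change of the gene count, Tdrd6-/- over Tdrd6+/-, for the 41 genes by subcomplex; points are estimates from edgeR and bars are 1 standard error. Only Sf1, at -0.50, passed the false discovery rate of 0.1, and the other 40 genes lie between -0.41 and 0.30.

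Sf1 encodes the branch point binding protein that marks the site before U2 snRNP arrives. The gene (ENSMUSG00000024949, plus strand) spans chr19:6363690-6378030 in mm10. An antisense gene overlaps its start, and whether the counting used strand is not given in the sources used here. Its count was 3617 and 3851 in Tdrd6+/- and 3294 and 2919 in Tdrd6-/-, which is 138 and 138 CPM against 104 and 91.2 CPM. The groups did not overlap, and the estimate was -0.50 on the log2 scale (standard error 0.13), with an adjusted p of 0.0394 in edgeR's quasi-likelihood test. Without Tdrd6-/- replicate 2 the log2 fold change was -0.40 and Sf1 no longer passed, so the call depended on that sample. That fit has no replication within Tdrd6-/-, and calls over all genes fell in it too. With genes of low count kept in the test the adjusted p was 0.282.

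By the ratio of mean CPM, the lower count of Sf1 was not spread evenly over the gene. This pattern was picked out after the values were seen and was not tested as a whole. No single segment passed the usage test given below, and adjacent segments can share fragments. Of 38 exon segments with at least 100 counts in total, 26 were lower in both Tdrd6-/- samples than in both Tdrd6+/- samples, and 14 had a ratio of mean CPM, Tdrd6-/- over Tdrd6+/-, under 0.7. In the middle of the gene, from 6368440 to 6372619, segments E011 to E022 had ratios of 0.578 to 0.648. As shares of the gene count, the genotypes overlapped for E011, E012, E016 and E017, and the others of this stretch were lower in both Tdrd6-/- samples. Segments E011, E012 and E013 lie within the intron of J050 and had ratios of 0.581, 0.596 and 0.589. The summed intronic count of Sf1 was also lower in both Tdrd6-/- samples, without a call (log2 fold change -0.31, adjusted p = 0.539, edgeR). Segment E015 (6371618 to 6371694) had 448 and 560 counts in Tdrd6+/- and 407 and 277 in Tdrd6-/-. Near the 5′ end segment E005 had 152 and 230 against 187 and 214 counts and a ratio of 0.896, E008 one of 0.778 and E010 one of 0.706. Segments departed from this order: E009, which lies within the intron of J047, had 127 and 111 against 106 and 75 counts and a ratio of 0.645, and E002, at the start of the gene, had 22 and 25 against 32 and 38 counts and a ratio of 1.27. Toward the 3′ end segment E032 had 126 and 157 against 149 and 172 counts and a ratio of 0.965. Beyond it the ratios were lower again, 0.723 at E040 and 0.567 at the last segment, E043, which had 60 and 66 against 48 and 36 counts.

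The junctions of Sf1 with at least 100 counts also had their lowest ratios in the middle of the gene. Junction J053, whose join is printed above, had 222 and 257 counts in Tdrd6+/- and 200 and 113 in Tdrd6-/-, or 8.48 and 9.23 CPM against 6.32 and 3.53 CPM. Its neighbours J052, J054 and J055 had ratios of 0.568, 0.630 and 0.613. Upstream, J047 had 104 and 176 against 150 and 147 counts, with overlapping groups and a ratio of 0.907, and J050, at the boundary, had 114 and 184 against 133 and 116 counts and a ratio of 0.715. Downstream, J062 had 66 and 87 against 80 and 91 counts and a ratio of 0.952. Closer to the 3′ end, J064 and J065 had ratios of 0.874 and 0.837, above those of segments E040 and E043.

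In Tdrd6+/- cells J052 to J055 were also the most abundant junctions of the gene, at 6.71 to 10.2 CPM, whereas J047 was at 3.97 and 6.32 CPM and J062 at 2.52 and 3.12 CPM. In Tdrd6-/- replicate 2 the same middle junctions, at 3.53 to 5.56 CPM, were close to J047 at 4.59 CPM. No single segment or junction of Sf1 passed the usage test, which compares a feature with the rest of its gene, and the smallest adjusted p among those above the filter on low counts was 0.974. Among 39 members with at least 5 junctions of 100 counts or more, Sf1 ranked 5 by the range of log2 ratios over its junctions, at 0.82, so unevenness of this size was not particular to it.

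**Figure D3:**
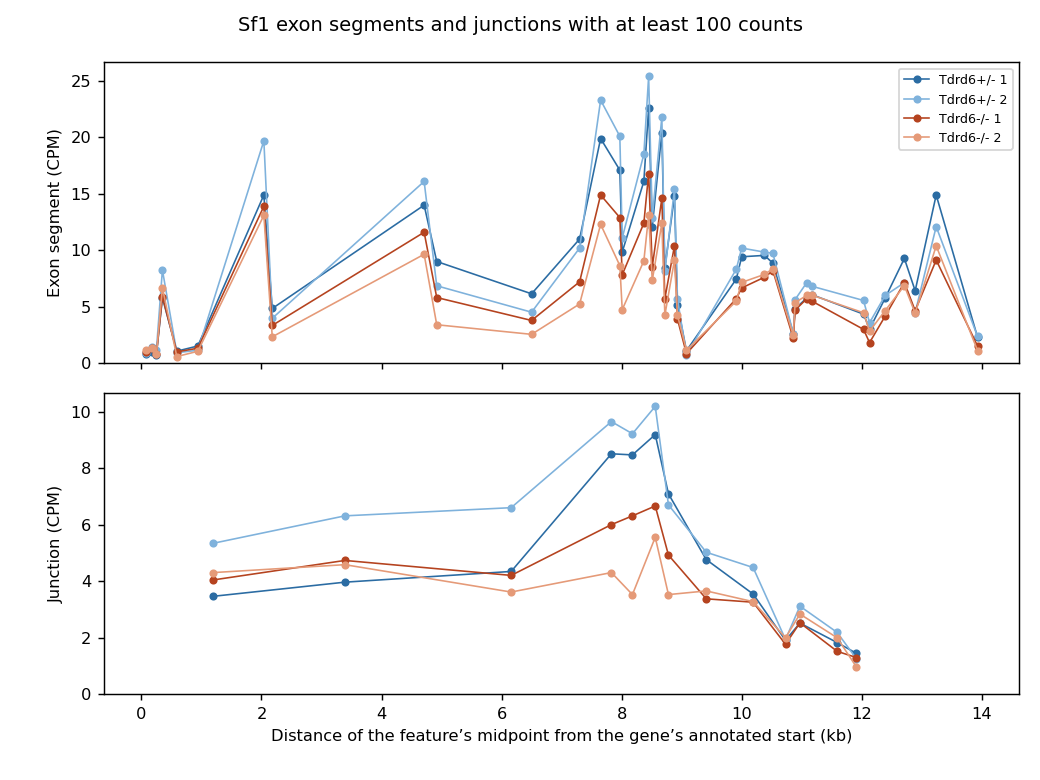
Sf1 exon segments (top) and junctions (bottom) with at least 100 counts in total, as CPM against the distance of the feature's midpoint from the annotated start of the gene in kb; lines join the features of 1 sample. The genotypes separate most in the middle of the gene, where junction J053 had 8.48 and 9.23 CPM in Tdrd6+/- and 6.32 and 3.53 in Tdrd6-/-, and come together at J062.

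The other factors of branch point and 3′ splice site recognition did not pass the test. Puf60, a U2AF-related protein and the highest of this group, had 26.3 and 26.4 CPM per kb in Tdrd6+/- and 28.3 and 30.4 in Tdrd6-/- (log2 fold change 0.15, standard error 0.13). U2af1, the U2AF subunit that contacts the 3′ AG, had a log2 fold change of -0.35 with both Tdrd6-/- samples lower, and its partner U2af2, which binds the polypyrimidine tract, one of 0.10. Smndc1, a Tudor domain protein of the spliceosome, stood at -0.29, again with both Tdrd6-/- samples lower. Their adjusted p-values were 0.426 to 0.843.

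None of the 10 U2 snRNP genes passed. The largest difference was in Sf3a2, a subunit of SF3A, with 858 and 974 counts in Tdrd6+/- and 848 and 769 in Tdrd6-/-, or 32.8 and 35.0 against 26.8 and 24.0 CPM. The groups did not overlap, but the log2 fold change of -0.41 (standard error 0.16) had an adjusted p of 0.212. Sf3b2, the highest per kb, had a log2 fold change of 0.10, and Sf3b1 one of -0.01. The remaining U2 genes Snrpa1, Snrpb2, Sf3a1, Sf3a3, Sf3b3, Sf3b4 and Sf3b5 lay between -0.26 and 0.24, and over the 10 genes 5 estimates were above 0 and 5 below.

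Sf3a2 also differed along its length. Junction J018 had 65 and 61 counts in Tdrd6+/- and 32 and 30 in Tdrd6-/-, a ratio of 0.417, and the adjacent segment E003 had 99 and 87 against 69 and 53 counts. J018 was below the filter on low counts of the usage test and has no adjusted p. The last segment, E016 (chr10:80804018-80804924), had 228 and 287 against 293 and 296 counts and a ratio of 0.974. As a share of the gene count, E016 took 28.0% ± 2.05 in Tdrd6+/- and 36.5% ± 2.79 in Tdrd6-/- (SD, n = 2 samples each), which did not pass the usage test (log2 fold change 0.56, adjusted p = 0.270 from a DESeq2 likelihood ratio test). Of the 39 members ranked, Sf3a2 had the widest range of junction ratios, 1.37 on the log2 scale. Its ends were J018 and J026, which had 26 and 52 against 49 and 49 counts and a ratio of 1.08. Both are junctions of low count, and the ranking makes no allowance for the wider spread of ratios at low counts.

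The 4 U1 genes had no call. Snrnp70, which contacts U1 snRNA directly, was at 82.1 and 90.8 CPM in Tdrd6+/- and 108 and 99.6 in Tdrd6-/-, with groups that did not overlap and a log2 difference of 0.26 (standard error 0.13, adjusted p = 0.402). Snrpa, the highest per kb, had 11.4 and 12.9 against 12.8 and 13.1 CPM per kb and a log2 fold change of 0.09. Snrpc stood at 0.21, and Prpf39, a U1-associated protein in other species, at -0.24.

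Among the proteins of tri-snRNP entry, the kinase gene Prpf4b had 111 and 96.7 CPM in Tdrd6+/- and 94.3 and 84.5 in Tdrd6-/- (log2 fold change -0.22, adjusted p = 0.535, edgeR). Sart1, which bridges the tri-snRNP to the pre-spliceosome, had 11.7 and 12.8 against 12.7 and 12.9 CPM per kb, with overlapping groups. Prpf4, a protein of U4/U6 snRNP, had a log2 fold change of -0.07.

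In the core of the Prp19 complex, Plrg1 had 77.7 and 75.9 CPM in Tdrd6+/- and 84.0 and 104 in Tdrd6-/- (log2 fold change 0.29, standard error 0.14, adjusted p = 0.364). Cdc5l, the highest per kb, had 37.1 and 36.3 against 33.2 and 36.3 CPM per kb. The ubiquitin ligase gene Prpf19 and Bcas2 had log2 fold changes of 0.15 and 0.13, and their groups overlapped.

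Of the 9 Prp19-related genes, Cwc27, a cyclophilin of the catalytic spliceosome, showed the largest difference, with 27.6 and 18.7 CPM in Tdrd6+/- and 18.9 and 18.3 in Tdrd6-/-. Its groups overlapped, since only Tdrd6+/- replicate 1 stood apart, and the log2 fold change of -0.32 had an adjusted p of 0.507. Bud31, the highest per kb, had 31.0 and 32.0 against 34.8 and 42.9 CPM per kb (log2 fold change 0.30, adjusted p = 0.363). Snw1, a scaffold of the catalytic centre, was at 0.26 with both Tdrd6-/- samples higher. Crnkl1, Xab2, Isy1, Rbm22 and Cwc22 lay between 0.02 and 0.19, and the helicase gene Aqr, whose product sits on the intron, at -0.15.

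The DEAH helicases act at successive steps, DHX16 and DHX38 before the first and second reactions, and DHX8 and DHX15 at release of the mRNA and of the intron lariat. Dhx8 had 85.7 and 103 CPM in Tdrd6+/- and 81.6 and 78.6 in Tdrd6-/- (log2 fold change -0.24, adjusted p = 0.482), and both Tdrd6-/- samples were lower. Dhx16, the highest per kb, had 35.1 and 40.5 against 38.5 and 37.5 CPM per kb. The estimates of Dhx15, Dhx16 and Dhx38 were -0.05, 0.01 and -0.03. Both second-step genes stood slightly above 0: Prpf18 had 58.7 and 53.1 against 62.4 and 64.1 CPM (log2 fold change 0.18), and Slu7, which helps to choose the 3′ splice site, had 24.5 and 30.5 against 29.97 and 30.1 CPM per kb (0.13).

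Among 38 further genes of the same stages, of which 37 were tested, 3 passed the test, all of them lower in Tdrd6-/-, and none was higher. That is 8.11% of the tested genes of a list chosen with earlier results of these data known, beside 4.8% of all genes tested (3.78% lower). They were Cherp, a U2-associated protein (52.6 and 21.0 CPM on average in Tdrd6+/- and Tdrd6-/-, log2 fold change -1.33, adjusted p = 3.36e-05), and the U1-associated Luc7l2 (300 and 178 CPM, -0.75, adjusted p = 0.00391) and Tial1 (111 and 65.8 CPM, -0.76, adjusted p = 0.00286). The 17 tested genes of the catalytic stage had no call, and the median log2 fold change over the 37 was 0.00.

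To see whether unspliced RNA of these genes differed, their intronic counts were summed by gene. Members carried few intronic counts beside genes in general: the median was 22.6 per 100 gene counts, against 60.7 over 13030 genes. The measure corrects neither for intron length nor for the level of a gene, and the members stood above genes in general in level per kb. Sf3b5 has no introns in the files. The range ran from 4.24 for Bcas2 to 513 for Cwc27, whose introns had 558 and 604 counts per 100 gene counts in Tdrd6+/- and 553 and 337 in Tdrd6-/-. U2af1 followed at 218 and 136 against 199 and 128. These are raw ratios, and the median over all genes was also lowest in Tdrd6-/- replicate 2, at 68 and 61.7 in Tdrd6+/- and 61.2 and 46 in Tdrd6-/-. After scaling, the log2 fold change of intronic relative to gene counts was -0.12 for Cwc27 and 0.19 for U2af1, without a call.

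None of the 40 members passed the test of summed intronic counts (edgeR quasi-likelihood test), beside 1.42% of all genes tested. DESeq2 called none of the 24 members to which it gave an adjusted p, beside 7.2% of all 5500 such genes. At an unadjusted p under 0.05 there were 5, a count that was not set beside the share of all genes. The smallest adjusted p belonged to Sf3a3 (log2 fold change 0.53, adjusted p = 0.260). Both Tdrd6-/- samples were higher for 14 of 40 members and lower for 5, while 22.1% and 21.4% of all tested genes were so placed. This test and these placements scale each sample by its own intronic counts, which takes out differences between samples in the intronic share. Per 100 gene counts a gene can be placed otherwise. Snrnp70 was higher in both Tdrd6-/- samples after scaling, but had 128 and 94.1 intronic per 100 gene counts in Tdrd6+/- against 89 and 81.9. Relative to the gene count, none of 39 members passed, beside 2.82% of all 13147 genes tested. Without Tdrd6-/- replicate 1, 5 of 40 members passed, all higher, which were Bud31, Plrg1, Puf60, Sf3a3 and Snw1. Calls were more frequent over all genes too in that fit, at 6.15% (3.07% higher).

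**Figure D4:**
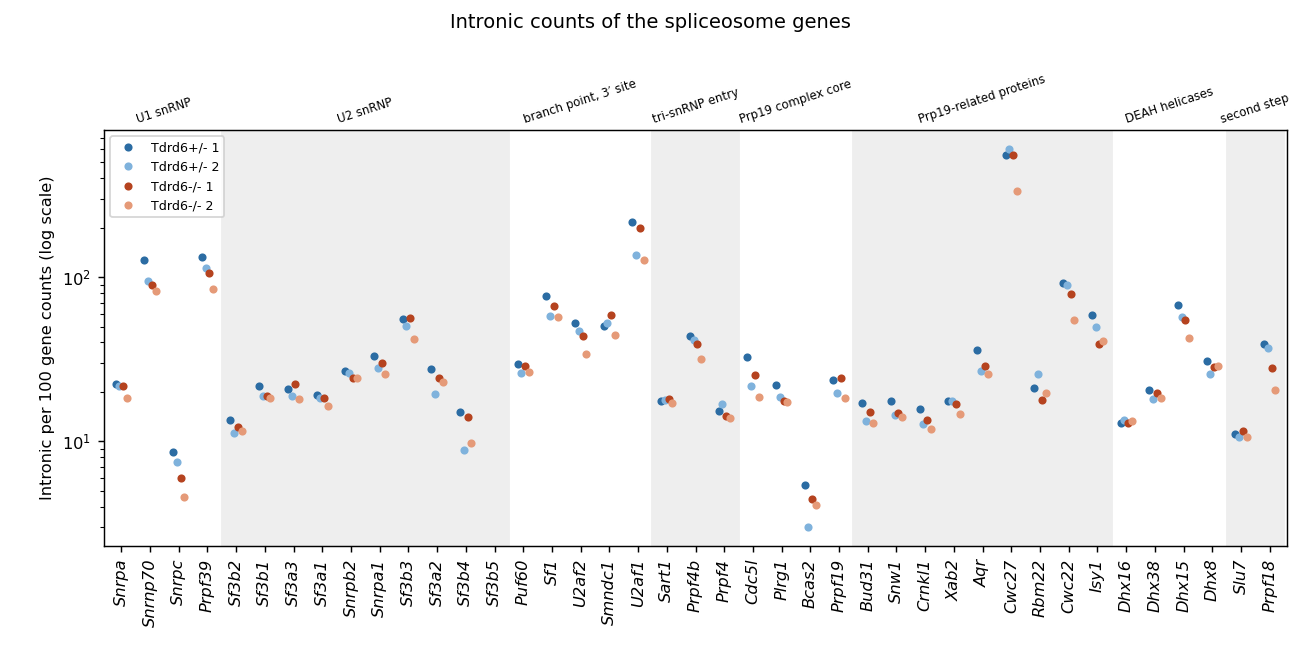
Intronic counts per 100 gene counts for the 40 members with introns on a log axis, by subcomplex; each point is 1 sample. Cwc27, with 558, 604, 553 and 337, stands above all other members, and Bcas2 is lowest. The ratios are raw and are not scaled for differences between samples in the intronic share.

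Single introns were then compared as the share of their gene's intronic count. The members had 552 introns in the files, of which 543 could be tested and 96, in 23 genes, had a mean count above the filter of 85.5. Of the 96, 2 passed, both with a lower share in Tdrd6-/-, which is 2.08% beside 1.94% of all introns above the filter (1.22% lower). The share of members called was thus near the background.

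The first is intron 11 of Dhx15, counted along the chromosome, the third in the order of the minus-strand transcript (ENSMUSG00000029169). It is 9.40 kb long. It had 547 and 433 counts in Tdrd6+/- and 309 and 203 in Tdrd6-/-, which was 15.9% and 16.7% of the gene's intronic count against 10.6% and 8.35%. The groups did not overlap, and its usage differed by -0.89 on the log2 scale (standard error 0.19, adjusted p = 0.0024, DESeq2 likelihood ratio test). The annotation holds a further gene on the same strand within this intron, so its counts may belong to either.

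No other intron of Dhx15 passed. Intron 12, next upstream in the transcript, had 344 and 256 counts against 300 and 213, and intron 13, the first of the transcript, had 317 and 270 against 368 and 306, with a higher share in both Tdrd6-/- samples but an adjusted p of 0.357. Exon 2, segment E013, which lies between introns 12 and 13, had 957 and 971 counts in Tdrd6+/- and 1288 and 1368 in Tdrd6-/-, a share of the gene of 20.0% ± 1.90 against 24.1% ± 0.0577 (SD, n = 2 each) that did not pass (adjusted p = 0.435). An unannotated junction of Dhx15 had 3 and 7 against 12 and 17 counts.

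The second is intron 1 of Prpf39 (ENSMUSG00000035597), 5.99 kb long, with 392 and 287 counts in Tdrd6+/- and 208 and 148 in Tdrd6-/-. Its share of the intronic count was 27.1% and 27.3% against 18.6% and 18.2%, so the replicates lay close and the groups apart (log2 difference -0.73, standard error 0.20, adjusted p = 0.0280). Intron 7 of the same gene, with 372 and 259 against 352 and 239 counts, became the largest in Tdrd6-/- at 31.5% and 29.3%. The next smallest adjusted p, 0.222, belonged to intron 24 of Sf3b1, the first of its transcript, with 294 and 304 counts against 245 and 220 and a log2 fold change of -0.51.

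**Figure D5:**
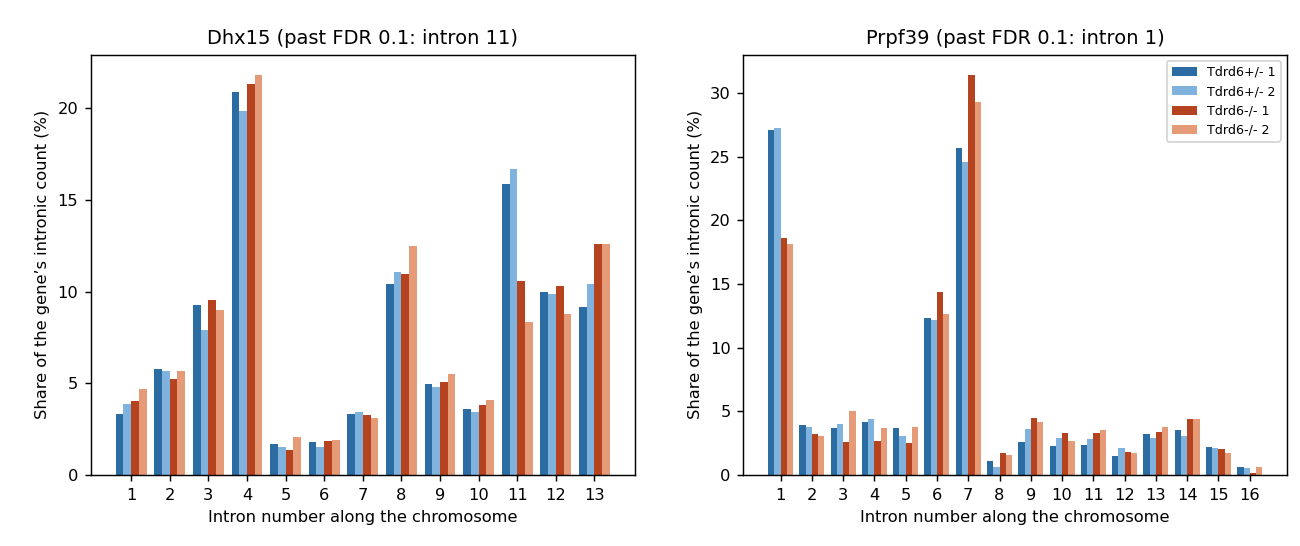
Share of each gene's intronic count, in percent, for every intron of Dhx15 (left) and Prpf39 (right), with 1 bar for each sample and introns numbered along the chromosome. Intron 11 of Dhx15 went from 15.9% and 16.7% in Tdrd6+/- to 10.6% and 8.35% in Tdrd6-/-, and intron 1 of Prpf39 from 27.1% and 27.3% to 18.6% and 18.2%.

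Both intron calls were sensitive to the samples and the tool. Without Tdrd6+/- replicate 1, Tdrd6+/- replicate 2 or Tdrd6-/- replicate 2 the adjusted p was 1, 0.127 and 0.503 for Dhx15 intron 11, and 1, 0.29 and 0.706 for Prpf39 intron 1. The log2 differences stayed near those over all samples, at -0.94, -0.85 and -0.71 for Dhx15 and -0.73, -0.72 and -0.71 for Prpf39. Over all introns 4, 333 and 12 were called in these fits, beside 561 with all samples. In edgeR's usage test both had an adjusted p of 1, with log2 differences of -0.78 and -0.56. Prpf39 intron 1 also lost its call with no independent filtering (adjusted p = 0.112). The direction stayed the same in each of these.

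Exon segments and junctions were compared as the share of their gene. The members had 839 exon segments, 614 annotated and 15 unannotated junctions, and 1087 of these exceeded the filter on the mean count of 53.4. None passed the DESeq2 likelihood ratio test, beside 0.221% of all features above the filter, and none passed in edgeR's usage test. Of the 1087, 23 had an unadjusted p under 0.05 in the likelihood ratio test, a count that was not set beside the share of all features. After segment E016 of Sf3a2, the smallest adjusted p was that of segment E008 of Bcas2, which had 210 and 182 counts in Tdrd6+/- and 293 and 385 in Tdrd6-/-, or 14.3% and 14.4% of the gene against 18.6% and 19.6% (adjusted p = 0.402). Segment E013 of Dhx15, described above, came next.

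The 15 unannotated junctions lay in 12 members, and most had few counts. The strongest was in Prpf19, with 112 and 124 counts in Tdrd6+/- and 117 and 166 in Tdrd6-/-, or 7.76% and 8.76% of the gene count against 6.87% and 8.15%. Next was 1 of 3 in Snrnp70, with 66 and 83 against 135 and 96 counts. As shares of the gene, the groups overlapped for both of these junctions.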

How the data were processed

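Ribosome-depleted total RNA was sequenced with a directional kit. Per the methods, the authors aligned fragments to mm10 with GSNAP, used Ensembl 75, and deposited raw counts per intron and per gene, exon segment and junction, which are not normalized. The counting program is not given in the sources used here. A fragment can count on several segments. Positions and lengths came from GENCODE M21, a later annotation, by order where the numbers matched. The called intron of Prpf39 was not placed by such a match. It was taken as the first intron shared by all transcripts from the gene start, and its length and printed join rest on this. For 14 of 16 minus-strand members intron counts followed length better in chromosome order.

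Gene and summed intronic counts were tested in edgeR 4.0.16 (TMM, filterByExpr, quasi-likelihood). Intron, segment and junction usage was tested by a likelihood ratio test in DESeq2 1.42.0, as DEXSeq and JunctionSeq were not installed, with joined genes left out for segments and junctions. The false discovery rate was 0.1 over all features. Scripts were tested on simulated data. Members and lists were chosen with earlier results of these data known. All members are named; values are given for calls, for the largest change and the highest level per subcomplex, and for the 3 smallest adjusted p of introns and of segments. Sf1, Sf3a2 and Dhx15 profiles and unannotated junctions were chosen after their values were seen.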

Additional observations from a re-analysis of the deposited data

How the results depend on the processing

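The alternatives were another tool, scaling, filter, threshold, reference or pairing, and leaving out each sample. The number of members called by gene count fell from 1 to 0 with no filter on low counts and ranged from 0 to 1 over the samples left out. Members called by intronic counts ranged from 0 to 5 in the same way, and all genes called from 4 to 951, with both highest counts without Tdrd6-/- replicate 1. Called introns of members went from 2 to 0 in edgeR's usage test, to 1 with no independent filtering and to 3 against the gene count, which added intron 1 of Prpf18 (3 of 38 tested, 7.89%, beside 10.2% of all introns), and ranged from 0 to 2 over the samples left out. No segment or junction of a member passed in any alternative. The median level was 73.9 CPM without length correction, another unit, and 13.1 to 14.3 CPM per kb over the samples left out, beside 13.7. Deviations of samples with the same number correlated at -0.107 over genes and 0.023 over introns, so the numbers were not taken to pair the samples. With a replicate block the members called stayed at 1 gene, 0 intronic sums, 2 introns and 0 segments or junctions, while all called genes went from 794 to 1046. A crossed pairing, added after seeing the data, gave 1 gene, 1 intron and 0 of the others. Over all genes, calls fell from 794 to 75 with no filter. Over all introns, calls went from 561 to 2 in edgeR's usage test and to 1354 against the gene count. The causes were not tested. Introns under the mean count filter, and pairs of samples, limit what could be detected.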
